A study of Mus musculus with 79 samples.

Results

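Lgals3, Gpnmb and Wfdc17 are 3 genes of activated microglia and macrophages that were chosen because, in earlier results of these arrays, their mRNA was higher in the brain of APP/PS1 mice given either antisense oligonucleotide (ASO) than in APP/PS1 mice given vehicle. They were taken by gene symbol: 4 of the 25697 probes on the array, and 3 of the 12739 genes that a probe names without ambiguity. Gpnmb has 2 probes, and Lgals3 and Wfdc17 have 1 each. The values that led to the choice, the genotype difference and the difference of each oligonucleotide from vehicle, are given here as a description and without a test.

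The study measured total RNA from the left hippocampus and left frontal cortex of female mice on 79 Illumina bead arrays, from 40 animals, of which 39 gave both tissues. APP/PS1 mice carry human APP and presenilin transgenes driven by a Thy1 promoter, which is active in neurons, and form amyloid plaques. APP/PS1 mice received an ASO against Cd33, a non-target control ASO, or phosphate-buffered saline (PBS), and wild-type (WT) littermates received PBS, each from an osmotic pump through a cannula into the right lateral ventricle, so that every group had surgery. Infusion began at 18 weeks of age and was planned for 14 days, with 75 µg of ASO delivered daily in a volume of 6 µL, and tissue was taken at about 20.5 weeks. No group labelled WT received an ASO. The hippocampus gave 11 WT PBS, 8 APP/PS1 PBS, 11 control ASO and 9 CD33 ASO arrays, and the cortex gave 11, 8, 11 and 10. Every array of a group came from another animal.

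Lgals3 encodes galectin-3, a lectin that binds beta-galactosides, is secreted by macrophages, and collects inside the cell on damaged lysosomes and endosomes. Gpnmb encodes a membrane glycoprotein of lysosomes and phagosomes whose transcription in macrophages follows lysosomal stress through transcription factors of the MiT/TFE family. Wfdc17, also called activated microglia/macrophage WAP domain protein, encodes a small secreted protein of the whey acidic protein family, studied in mouse microglia as a brake on inflammatory activation. All are low in resting microglia and high in phagocytic ones, around plaques, after demyelination and in ageing brain.

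The promoters are shown because the 3 genes differed together between groups. Each run holds the 250 bases before the start of transcription annotated by RefSeq (build GRCm38.p6, mouse) and the 20 bases from it on, on the plus strand, and capitals mark matches to the motifs searched.
Lgals3 (chr14:47373610-47373879): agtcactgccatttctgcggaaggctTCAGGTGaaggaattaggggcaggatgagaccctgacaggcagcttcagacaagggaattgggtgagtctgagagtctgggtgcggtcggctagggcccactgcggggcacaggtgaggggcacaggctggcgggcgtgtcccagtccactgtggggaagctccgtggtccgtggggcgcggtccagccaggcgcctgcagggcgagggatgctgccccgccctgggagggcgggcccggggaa
Gpnmb (chr6:49036268-49036537): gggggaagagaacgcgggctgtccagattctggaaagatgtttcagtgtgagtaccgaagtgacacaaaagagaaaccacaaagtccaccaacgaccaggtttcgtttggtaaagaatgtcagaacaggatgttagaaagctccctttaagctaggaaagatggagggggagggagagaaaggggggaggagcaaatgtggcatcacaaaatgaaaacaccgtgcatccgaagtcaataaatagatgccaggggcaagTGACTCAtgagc
Wfdc17 (chr11:83703806-83704075): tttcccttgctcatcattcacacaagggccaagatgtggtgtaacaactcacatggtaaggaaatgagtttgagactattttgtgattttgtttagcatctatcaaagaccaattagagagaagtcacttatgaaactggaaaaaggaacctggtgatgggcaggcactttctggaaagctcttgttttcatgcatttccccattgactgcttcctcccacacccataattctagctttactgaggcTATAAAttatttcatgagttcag

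The search covered both strands of the 300 bases from 250 before to 50 after each start. The motifs were AP-1 (TGANTCA, in 7.81% of all 32851 promoter windows of that length), the E-box CACGTG (7.15%) and PU.1 (GAGGAAGT, 3.2%). Also searched were the interferon-gamma element TTCNNNGAA (8.3%), the TATA box TATAAA (13.6%) and the pattern TTGCNNCAA (2.08%). The pattern TCANGTG (14.3%), with any base at N, holds the E-box when N is C. Each promoter held 1 match. These were a TCANGTG match with the letters TCAGGTG at -224 to -218 of Lgals3, an AP-1 match at 9 to 15 of Gpnmb, and TATAAA at -3 to 3 of Wfdc17. No motif of the set was shared by the 3 genes. G and C made up 66.0% of the upstream bases of Lgals3, 47.2% of Gpnmb and 41.2% of Wfdc17, against a median of 52.4% over all promoters, and the Wfdc17 window held 0 CG pairs.

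Levels below are normalized log2 signals of single probes, and differences are between group means on that log2 scale with the standard error (SE) of a limma fit of the 4 groups of a tissue. Cd33, the target of the ASO, lay between 4.45 and 5.16 in the hippocampus of CD33 ASO mice and between 6.15 and 7.16 in those given control ASO, a difference of -1.71 (SE 0.106, limma adjusted p = 1.08e-15), and these groups did not overlap. In the cortex Cd33 lay between 4.49 and 6.39 and between 6.48 and 7.25, a difference of -1.27 (SE 0.139, limma adjusted p = 7.24e-08). Thy1 signal lay between 13.76 and 14.03 in WT and between 14.51 and 14.80 in APP/PS1 PBS hippocampi, and between 13.85 and 14.14 and between 14.59 and 14.80 in cortices. In 7 arrays labelled APP/PS1 it was no higher than in the highest WT array of the tissue (13.83 to 13.96 in the hippocampus, 13.81 to 14.01 in the cortex). They came from 4 animals, 2 given control ASO and 2 given CD33 ASO, 3 of them low in both tissues and 1 with a cortical array only. Their Thy1 goes against the APP/PS1 label, and these values do not settle whether they carry the transgenes. Their labels were kept, and the differences of the members and of the plaque genes from PBS are given with and without them. Without them the Cd33 difference of CD33 ASO from control ASO was -1.63 in the hippocampus and -1.14 in the cortex. Tissue was usually taken 17 days after surgery, and 4 animals were taken on another day: 3 given CD33 ASO after 13, 13 and 16 days and 1 APP/PS1 PBS animal after 14. The CD33 ASO animals taken after 13 days had not reached the planned length of infusion. Of the 3 CD33 ASO animals, those taken after 16 days and after 13 days in 1 case were the 2 low-Thy1 ones. For CD33 ASO, leaving out the low-Thy1 animals thus also leaves out most animals taken on another day, and these cannot be told apart. The slides, 5 for each tissue, held no array of the other tissue.

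Lgals3 was higher after either ASO in both tissues, and its genotype difference was small in the hippocampus and larger in the cortex. In the hippocampus the lowest, median and highest Lgals3 levels were 6.45, 7.17 and 8.28 in WT PBS and 6.83, 7.74 and 8.28 in APP/PS1 PBS. They were 8.53, 9.01 and 10.48 with control ASO and 9.04, 9.33 and 11.14 with CD33 ASO. Every hippocampus of an ASO-treated mouse was thus above every PBS-treated one, while both PBS groups overlapped almost completely. The genotype difference was 0.34 (SE 0.245, 1.27-fold), the control ASO difference from PBS was 1.41 (SE 0.245, 2.66-fold), and that of CD33 ASO was 1.85 (SE 0.256, 3.62-fold). Without the low-Thy1 animals the ASO differences were 1.29 and 1.82. With slide as a block they were 1.55 and 1.92. In bulk tissue a change in the number of cells that carry an mRNA and a change of the amount per cell cannot be told apart.

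In the frontal cortex the lowest, median and highest Lgals3 levels were 5.24, 5.61 and 6.80 in WT PBS and 6.50, 6.73 and 8.46 in APP/PS1 PBS. They were 8.18, 8.90 and 10.10 with control ASO and 8.22, 9.19 and 11.33 with CD33 ASO. Here 1 APP/PS1 PBS animal, at 8.46, reached into the range of the ASO groups, so that 9 of 11 control ASO and 8 of 10 CD33 ASO arrays were above all PBS arrays. The genotype difference was 1.27 (SE 0.275, 2.41-fold), that of control ASO 1.98 (SE 0.275, 3.94-fold) and that of CD33 ASO 2.24 (SE 0.281, 4.71-fold), or 1.88 and 2.00 without the low-Thy1 animals.

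Gpnmb was also higher after either ASO in both tissues. In the hippocampus its lowest, median and highest levels on the brighter probe were 8.22, 8.44 and 8.79 in WT PBS and 8.56, 8.78 and 9.10 in APP/PS1 PBS. They were 9.45, 9.86 and 11.57 with control ASO and 9.68, 10.07 and 12.04 with CD33 ASO. The ASO groups again lay wholly above the PBS groups, and 1 animal of each ASO group stood well above the rest. The genotype difference was 0.34 (SE 0.210, 1.26-fold), the control ASO difference 1.21 (SE 0.210, 2.31-fold) and the CD33 ASO difference 1.44 (SE 0.220, 2.71-fold). They came to 1.05 and 1.46 for the ASOs without the low-Thy1 animals, which include the highest control ASO array, and to 1.15 and 1.39 with slide as a block.

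In the frontal cortex the lowest, median and highest Gpnmb levels were 6.95, 7.82 and 8.53 in WT PBS and 8.13, 8.62 and 8.94 in APP/PS1 PBS. They were 9.06, 9.75 and 11.13 with control ASO and 8.81, 9.83 and 10.00 with CD33 ASO. Every control ASO array was above every APP/PS1 PBS array, as were 9 of 10 CD33 ASO arrays. The genotype difference was 0.77 (SE 0.189, 1.71-fold), against 1.24 (SE 0.189, 2.37-fold) for control ASO and 1.03 (SE 0.193, 2.04-fold) for CD33 ASO, or 1.14 and 1.01 without the low-Thy1 animals.

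The dimmer Gpnmb probe was at the edge of detection and gave the same order with smaller differences. It was detected (detection p under 0.05) on 0 of 11 WT PBS arrays and 1 of 8 APP/PS1 PBS arrays in each tissue. In the hippocampus it was detected on 9 of 11 control ASO and 7 of 9 CD33 ASO arrays, and in the cortex on 6 of 11 and 5 of 10. Its mean level in the hippocampus was 4.84 in APP/PS1 PBS, 5.57 with control ASO and 5.70 with CD33 ASO, and in the cortex 4.75, 5.29 and 5.06. Most PBS arrays give only an upper bound for this probe, so its differences from PBS are not read as folds.

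Wfdc17 was near background in PBS-treated mice of either genotype and was detected on every array of the ASO groups. In the hippocampus its lowest, median and highest levels were 4.47, 4.72 and 5.17 in WT PBS and 4.77, 4.97 and 5.07 in APP/PS1 PBS. They were 5.46, 6.11 and 6.53 with control ASO and 5.63, 6.30 and 7.74 with CD33 ASO. The ASO groups did not overlap with either PBS group. The probe was detected on only 2 of 11 WT PBS and 3 of 8 APP/PS1 PBS arrays, so most PBS values are upper bounds, the genotype difference of 0.16 (SE 0.159) lies between levels near background, and the ASO differences depend on how background is treated. The measured differences were 1.11 (SE 0.159) with control ASO and 1.53 (SE 0.166) with CD33 ASO, with ranges of 0.64 to 1.60 and 0.94 to 2.12 over the processing alternatives, and no fold is given. They were 1.10 and 1.56 without the low-Thy1 animals.

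In the frontal cortex the lowest, median and highest Wfdc17 levels were 4.48, 4.63 and 5.49 in WT PBS, detected on 1 of 11 arrays, and 4.52, 5.0 and 5.49 in APP/PS1 PBS, detected on 4 of 8. They were 5.61, 6.12 and 6.42 with control ASO and 5.79, 6.28 and 7.17 with CD33 ASO. Every ASO array was above every PBS array of either genotype. With the same limit as in the hippocampus, the measured genotype difference was 0.29 (SE 0.143), that of control ASO 1.13 (SE 0.143, 0.65 to 1.53 over the alternatives) and that of CD33 ASO 1.40 (SE 0.146, 0.84 to 1.86), or 1.10 and 1.45 without the low-Thy1 animals.

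**Figure D1:**
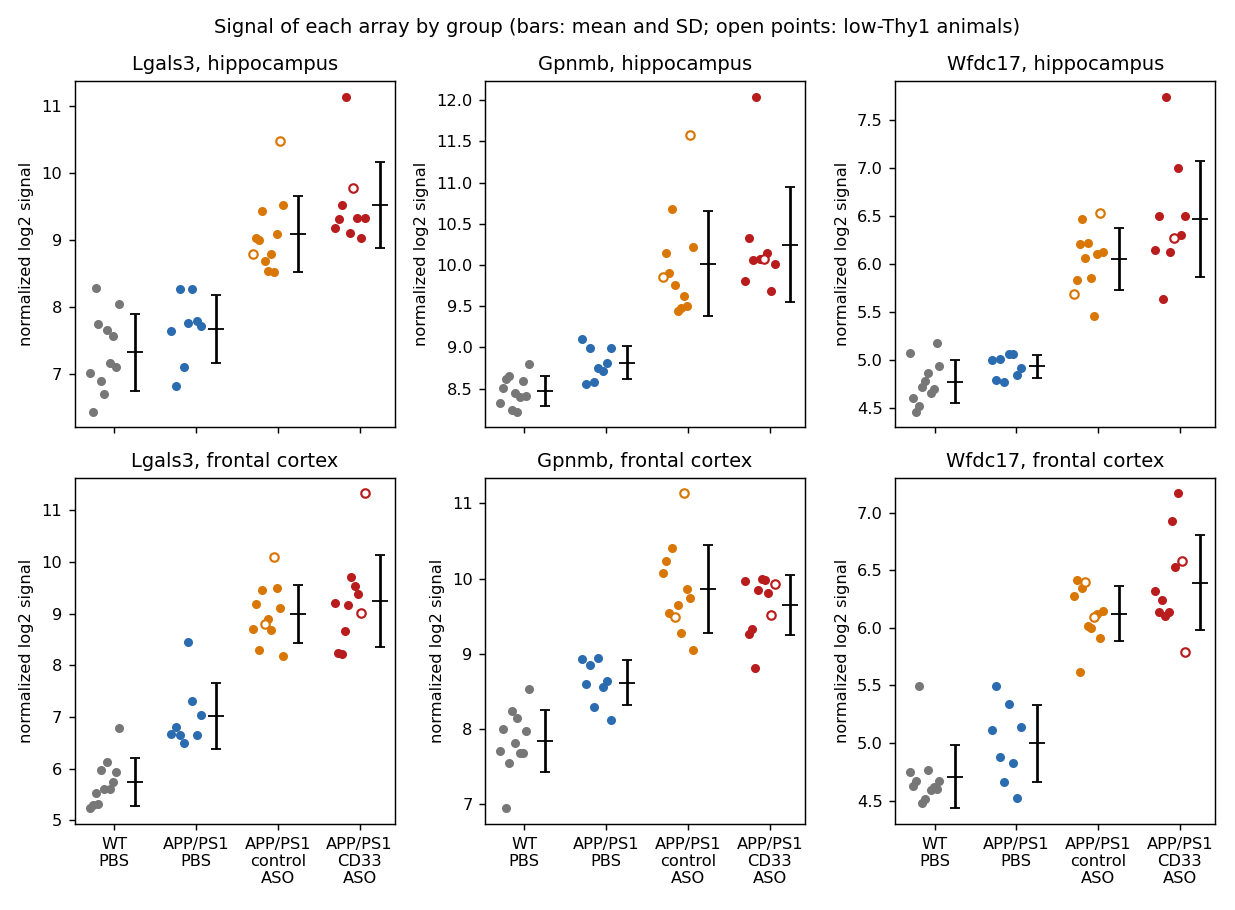
Normalized log2 signal of Lgals3, Gpnmb (brighter probe) and Wfdc17 on each array, by group, in hippocampus (top) and frontal cortex (bottom), with the mean and SD of each group beside its points and low-Thy1 animals as open points. In the hippocampus all ASO arrays lie above all PBS arrays for the 3 genes. In the cortex 1 APP/PS1 PBS array of Lgals3, at 8.46, lies among the ASO arrays. For Gpnmb the lowest cortical CD33 ASO array, at 8.81, lies below the highest APP/PS1 PBS array, at 8.94.

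Counted over probes in the hippocampus, every control ASO array was above every APP/PS1 PBS array for 3 of the 4 member probes, where 0.201% of all tested probes were so separated, and every CD33 ASO array for 4 of 4, where 0.576% were. In the cortex it was 2 of 4 probes for control ASO and 1 of 4 for CD33 ASO, with 0.0411% of all tested probes in each. For genotype it was 0 of 4 in both tissues, with 0.442% of probes in the hippocampus and 1.68% in the cortex. The genes had been chosen on these comparisons, so nothing is read from these shares. All 3 comparisons use the APP/PS1 PBS arrays, so their differences are not independent of each other. Within single slides that held both groups, the control ASO difference was above 0 on 2 of 2 hippocampal and 5 of 5 cortical slides for Lgals3 (1.07 to 1.43 and 1.15 to 2.58), Gpnmb (0.83 to 1.05 and 0.84 to 1.65) and Wfdc17 (1.04 to 1.23 and 0.98 to 1.37). The CD33 ASO difference was above 0 on 4 of 4 slides in each tissue, from 1.43 to 2.23 and from 1.69 to 2.78 for Lgals3, from 0.70 to 1.85 and from 0.58 to 1.68 for Gpnmb, and from 1.14 to 1.59 and from 0.90 to 2.25 for Wfdc17.

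For each member the order of group means was WT PBS, APP/PS1 PBS, and then both ASO groups. CD33 ASO was the highest for Lgals3 and Wfdc17 in both tissues and for Gpnmb in the hippocampus, and control ASO for Gpnmb in the cortex. Neighbouring groups in this order overlapped in every case except APP/PS1 PBS against the next ASO group in the hippocampus (3 genes) and, in the cortex, for Wfdc17. The cortical Lgals3 genotype difference of 1.27 was larger than the SD of 0.457 among WT and of 0.639 among APP/PS1 PBS animals, and the hippocampal one of 0.34 was smaller than the SDs of 0.575 and 0.504.

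Genes that mark the plaque response of microglia were set beside the members, with the low-Thy1 animals and without them. Cst7, which encodes a cysteine protease inhibitor (cystatin F) and is a marker of plaque-associated microglia, was not well above background on any of the 11 WT arrays of either tissue. Its APP/PS1 PBS mean was at least 5.46-fold above WT in hippocampal tissue and at least 17.9-fold above it in cortical tissue. Against PBS, Cst7 differed by -0.09 (SE 0.246, limma adjusted p = 0.855) with control ASO and 0.22 (SE 0.257, limma adjusted p = 0.743) with CD33 ASO in the hippocampus. In the cortex the differences were -0.74 (SE 0.472, limma adjusted p = 0.676) and -0.36 (SE 0.482, limma adjusted p = 0.836). Without the low-Thy1 animals the Cst7 differences were 0.21 and 0.40 in the hippocampus and 0.055 and 0.13 in the cortex, so the negative ones turned positive. Trem2, a lipid-sensing receptor of microglia, rose with genotype by 1.42 (hippocampus, SE 0.143, limma adjusted p = 3.68e-09) and by 2.43 (cortex, SE 0.252, limma adjusted p = 9.16e-10). Trem2 rose with CD33 ASO against PBS in the hippocampus by 0.68 (SE 0.150, limma adjusted p = 0.00281), and its other ASO differences were 0.30 in the hippocampus with control ASO, and -0.17 and -0.20 in the cortex, where both turned to 0.17 without the low-Thy1 animals. Without these animals its hippocampal differences were 0.41 with control ASO and 0.72 with CD33 ASO. Tyrobp, the signalling adaptor of Trem2, differed by 1.44 and 2.36 with genotype, by 0.20 and 0.04 with control ASO, and by 0.78 and 0.16 with CD33 ASO, in hippocampus and cortex. Without the low-Thy1 animals the Tyrobp values were 0.27 and 0.34 with control ASO and 0.80 and 0.44 with CD33 ASO.

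**Figure D2:**
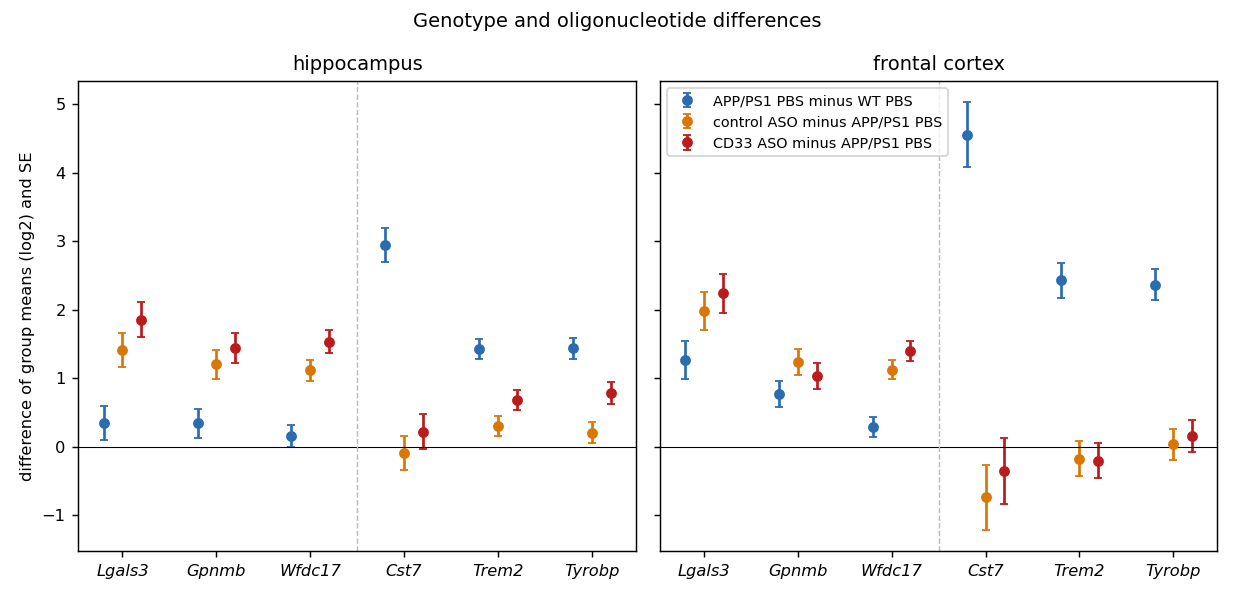
Differences of group means (log2) with their SE for genotype, control ASO and CD33 ASO, for the 3 members (left of the dashed line) and for Cst7, Trem2 and Tyrobp (right of it), in hippocampus and frontal cortex. Cst7 was not detected in WT, and its genotype points, drawn at the measured means, lie above the lower bounds of 2.45 and 4.17. The ASO differences of the members lie between 1.03 and 2.24 (1.01 to 2.00 without the low-Thy1 animals), and those of Cst7, Trem2 and Tyrobp between -0.74 and 0.78 (0.055 to 0.80 without them, with every negative value turned positive).

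Over the plaque-associated list of microglial genes, without the members, 11 of 23 measured genes were higher with genotype in the hippocampus (median difference 0.40, against -0.01 over all genes, of which 1.05% were higher) and 18 of 22 in the cortex (median 1.07, against -0.02, with 4.01% higher). Control ASO against PBS gave 2 higher and 1 lower of 23 in the hippocampus (median 0.07, against 0.02, with 6.5% of all genes higher and 5.44% lower), and 0 higher with slide as a block, and 0 of 22 higher in the cortex (median -0.10). Without the low-Thy1 animals that cortical median turned to 0.07, with 1 of 22 higher. In the hippocampus control ASO then gave 2 higher and 1 lower of 23, with a median of 0.14. CD33 ASO gave 8 of 23 higher in the hippocampus (median 0.24, against -0.0026, with 3.62% higher and 1.98% lower), among them Lyz2, a lysozyme of macrophages, by 1.15, and the chemokines Ccl4 by 1.09 and Ccl3 by 0.83. Without the low-Thy1 animals CD33 ASO gave 10 of 23 higher there (median 0.28). With all animals it gave 0 of 22 in the cortex (median 0.04, and 0.14 with 1 higher without the low-Thy1 animals), where limma called 0.822% of all genes higher. In the cortex 0.416% of all genes were higher with control ASO.

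The low-Thy1 arrays were high for the members and low for Cst7. In the hippocampus the array labelled control ASO replicate 10 had Lgals3 at 10.48, Gpnmb at 11.57 and Wfdc17 at 6.53 with Cst7 at 6.54. Control ASO replicate 1 had 8.80, 9.86 and 5.69 with Cst7 at 5.72, and CD33 ASO replicate 6 had 9.78, 10.08 and 6.27 with Cst7 at 6.29. Each of the 3 was above every PBS array of either genotype for the members and below every APP/PS1 PBS array, of which the lowest was 6.88, for Cst7. In the cortex the arrays labelled control ASO replicates 5 and 8 and CD33 ASO replicates 9 and 10 had Lgals3 at 8.80, 10.10, 9.02 and 11.33. Their Gpnmb was 9.49, 11.13, 9.52 and 9.93, and their Wfdc17 6.40, 6.10, 6.58 and 5.79. Cst7 was 5.12, 4.83, 5.89 and 8.04 on them, against 8.70 on the lowest APP/PS1 PBS array, and the members were again above all PBS arrays.

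**Figure D3:**
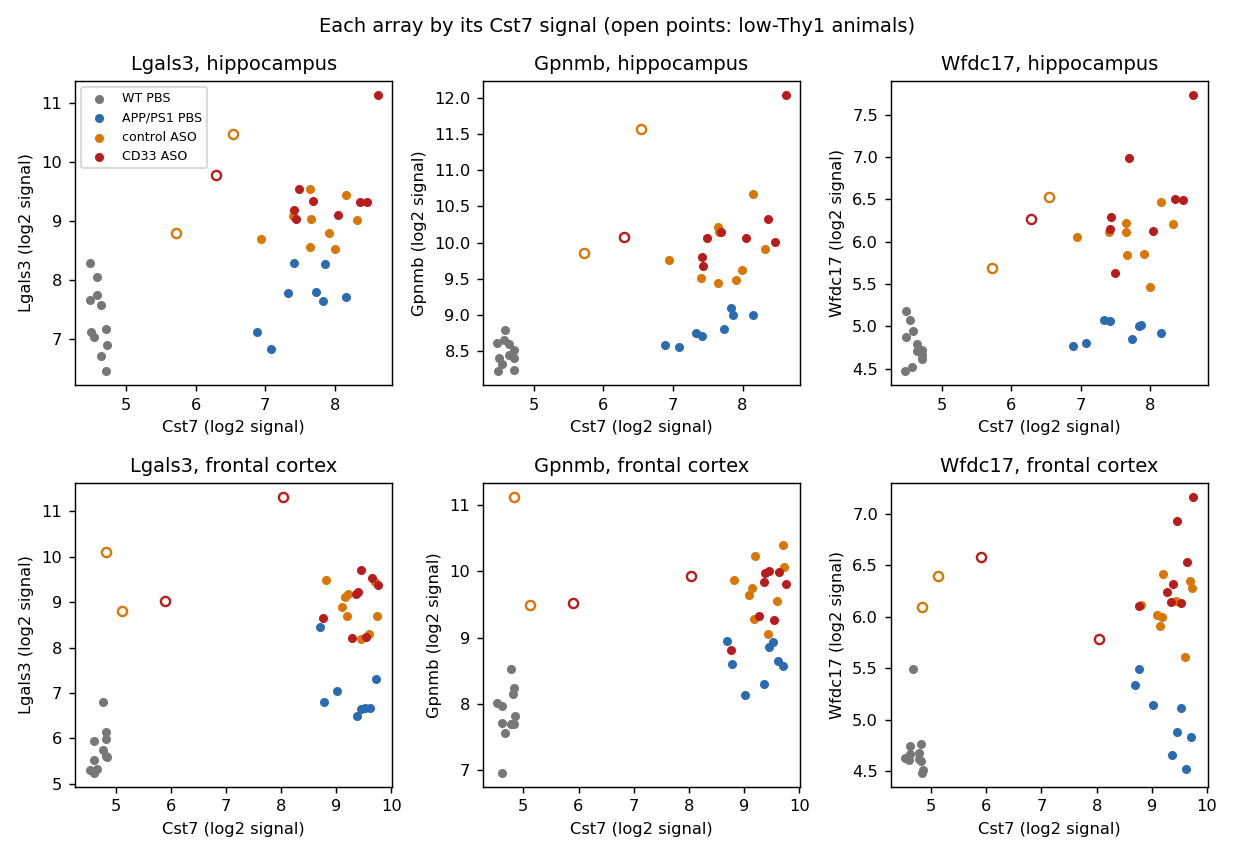
Log2 signal of each member against that of Cst7 on every array of a tissue, coloured by group, with low-Thy1 animals as open points. WT arrays lie at the lower left, APP/PS1 PBS arrays to the lower right, ASO arrays to the upper right, and the open points high on the member axis and to the left of the other ASO arrays.

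The comparison of CD33 ASO with control ASO was not used to choose the members, and no member probe passed the test in it. In the hippocampus the difference was 0.44 for Lgals3 (95% interval -0.04 to 0.92, limma adjusted p = 0.306), 0.23 for Gpnmb (-0.18 to 0.64, limma adjusted p = 0.578) and 0.42 for Wfdc17 (0.11 to 0.73, limma adjusted p = 0.12). The dimmer Gpnmb probe differed by 0.13 (limma adjusted p = 0.809). In the cortex the differences were 0.26 for Lgals3 (-0.26 to 0.78, limma adjusted p = 0.809), -0.21 for Gpnmb (-0.57 to 0.15, limma adjusted p = 0.757), 0.27 for Wfdc17 (0.00042 to 0.54, limma adjusted p = 0.517), and -0.23 for the dimmer Gpnmb probe (limma adjusted p = 0.623). The ranges of both groups overlapped for all 4 probes in both tissues, where every CD33 ASO array was above every control ASO array for 0.0402% of all tested probes in the hippocampus and 0.0137% in the cortex. Thus 0 of 4 member probes were called by limma in each tissue, where 3.53% of all tested probes were called in the hippocampus and 0.322% in the cortex. At an unadjusted p under 0.05 it was 1 of 4 (Wfdc17) in each tissue, beside 2801 of 14923 tested probes in the hippocampus and 1408 of 14581 in the cortex.

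A two-sided permutation test of the same differences, adjusted over 6 comparisons, gave the lowest p for Wfdc17, 0.0598 by the exact test in the hippocampus (adjusted 0.236) and 0.0786 by permutation in the cortex (adjusted 0.236). For Lgals3 it gave 0.131 (exact test) and 0.456 (permutation), and for Gpnmb 0.447 (exact test) and 0.352 (permutation). The Wfdc17 result in the hippocampus turned on 1 animal: without CD33 ASO replicate 3 the difference was 0.52 and the limma adjusted p 0.0409. The difference between tissues in the effect of CD33 ASO against control ASO was 0.20 for Lgals3 (95% interval -0.49 to 0.90, limma adjusted p = 0.892), 0.45 for Gpnmb (-0.09 to 0.98, limma adjusted p = 0.612) and 0.14 for Wfdc17 (-0.26 to 0.54, limma adjusted p = 0.868). For that contrast limma called 0 of 4 member probes and 0.00654% of all probes. At an unadjusted p under 0.05 it was 0 of 4, beside 1403 of 15290 probes. The intervals leave room for differences between the ASOs of up to 0.92 for Lgals3 and 0.73 for Wfdc17 in the hippocampus, so they do not show that the ASOs act alike.

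Lgals3 and Gpnmb also differed between tissues in PBS-treated WT mice, a contrast that the choice of genes did not use. Lgals3 was higher in the hippocampus than in the cortex of 11 of 11 WT mice, by 1.59 (SE 0.238, 3.01-fold, limma adjusted p = 3.17e-08), and by 0.57 to 2.53 in single mice. Gpnmb was higher in 10 of 11, by 0.63 (SE 0.182, 1.54-fold, limma adjusted p = 0.00349). Wfdc17, detected on 2 and 1 of 11 arrays, and the dimmer Gpnmb probe, detected on none, were at background on most or all WT arrays and are not compared. Of the 4 member probes 2 were called, Lgals3 and the brighter Gpnmb probe, where 38.1% of all probes were. Nothing is read from this count. Tissue and slide cannot be told apart here. Choroid plexus markers, 8 of 10 with a probe, had a summed signal of 4006 to 39921 in WT hippocampi and 389 to 651 in WT cortices, and their part in the tissue difference was not tested.

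The levels of a member in both tissues of the same animal were compared within each group. Over 12 relations (3 genes, 4 groups), 0 Pearson correlations passed at an adjusted p under 0.05 by permutation, 1 passed unadjusted, and 2 rank correlations passed adjusted. Gpnmb in 9 CD33 ASO animals had r = 0.56 (exact permutation p = 0.110, adjusted 0.461) and rho = 0.93 (exact permutation p = 0.00075, adjusted 0.00899), with r = 0.76 without the 2 animals farthest from the median. Wfdc17 in 11 control ASO animals had r = 0.70 (permutation p = 0.0154, adjusted 0.185) and rho = 0.81 (p = 0.00361, adjusted 0.0217), with r = 0.78 without the 2 farthest. Lgals3 in the same 11 animals had r = -0.01 (permutation p = 0.985) and rho = 0.04 (p = 0.924), and Gpnmb r = 0.14 and rho = 0.46. The Lgals3 and Gpnmb values rest on the low-Thy1 control ASO animals, of which, by the animal numbers in the labels, 1 had Lgals3 at 10.48 in the hippocampus and 8.80 in the cortex and the other 8.80 and 10.10. Without them r was 0.33 for Lgals3, 0.79 for Gpnmb and 0.69 for Wfdc17, with adjusted permutation p of 0.713, 0.125 and 0.252. Whether the numbers of these animals were exchanged between tissues was not tested.

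**Figure D4:**
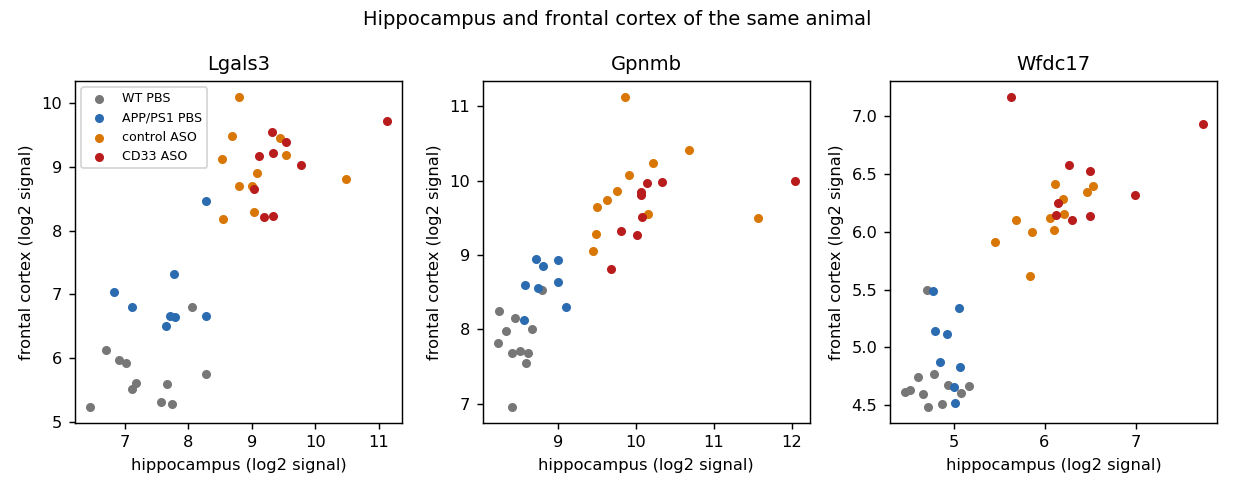
Log2 signal in the frontal cortex against that in the hippocampus of the same animal, for the 39 animals with both tissues, by group. PBS-treated animals lie at the lower left and ASO-treated animals at the upper right, and the highest hippocampal Gpnmb values, 11.57 and 12.04, go with cortical values of 9.49 and 10.00 by the animal numbers in the labels. The first of these pairs is a low-Thy1 animal, and the other low-Thy1 control ASO animal has 9.86 and 11.13.

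Between members, Lgals3 and Gpnmb varied together among control ASO animals. Of 24 relations (3 pairs, 4 groups, 2 tissues), 2 Pearson correlations passed at an adjusted p under 0.05, and 0 rank correlations did. Over the 11 hippocampi, r was 0.92 (permutation p = 0.00069, adjusted 0.00912) and rho 0.75 (p = 0.0111, adjusted 0.0891). Over the 11 cortices, r was 0.86 (permutation p = 0.00076, adjusted 0.00912) and rho 0.83 (p = 0.00275, adjusted 0.0545). Leaving out the 2 arrays farthest from the median gave 0.77 and 0.62. Leaving out the low-Thy1 animals gave 0.78 and 0.74, each with an adjusted permutation p of 0.0996, so neither call held without them. Fewer animals also give less power, so whether the relation depends on those animals cannot be told. In 9 CD33 ASO hippocampi r was 0.95 (exact permutation p = 0.0137, adjusted 0.092), falling to 0.57 without the 2 farthest.

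Over all 39 hippocampal arrays the genes whose signal was most like that of Lgals3, by Pearson correlation among 10268 genes, were Gpnmb (0.94), Tlr2 (0.92), Lyz1 (0.91), Fcgr4 (0.91) and Lyz2 (0.90). Those most like Gpnmb were Serpina3n (0.95), Alox5ap (0.94), Lgals3 (0.94), P2ry6 (0.94) and Grn (0.93), and those most like Wfdc17 were Gpnmb (0.91), Oas2 (0.90), Fcgr4 (0.89), Myd88 (0.89) and Lgals3 (0.88). Over the 40 cortical arrays and 10093 genes, Lgals3 was most like Gpnmb (0.92), Ms4a6d (0.92), Ctsc (0.88), Ifitm3 (0.88) and Cyp4f18 (0.88), and Gpnmb was most like Lgals3 (0.92), Lyz1 (0.87), Lyz2 (0.87), Ms4a7 (0.85) and Pdlim4 (0.85). Cortical Wfdc17 was most like Ms4a7 (0.88), Lgals3 (0.85), Anxa2 (0.83), Gpnmb (0.81) and Lyz1 (0.77). These arrays share the group differences that chose the members. After subtracting group means, the correlations listed above lay between 0.47 and 0.88 in the hippocampus and between 0.055 and 0.76 in the cortex. That of Lgals3 with Gpnmb was 0.77 and 0.63, of Gpnmb with Wfdc17 0.63 and 0.14, and of Wfdc17 with Lgals3 0.49 and 0.055. For Cst7 r over all arrays was between 0.52 and 0.64, and 333 to 449 was its range of places in these lists.

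No other galectin was called higher with both ASOs, in either tissue. Of 7 measured genes of the family besides Lgals3, 2 were higher with genotype in each tissue: Lgals3bp, a galectin-binding glycoprotein, by 0.88 and 2.13, and Lgals9, a galectin with paired sugar-binding domains, by 0.62 and 1.11. The median of the 7 was 0.04 in the hippocampus and 0.08 in the cortex. With control ASO 1 of 7 was higher in the hippocampus, Lgals8 by 0.21 (SE 0.061, limma adjusted p = 0.0245, and 0.491 with slide as a block), and 0 of 7 in the cortex, with medians of 0.05 and 0.12. With CD33 ASO 2 of 7 were higher in the hippocampus, Lgals3bp by 0.88 and Lgals9 by 0.70, and 1 of 7 in the cortex, Lgals4 by 0.48, with medians of 0.16 and 0.11. Lgals1 differed from PBS by between -0.08 and 0.16. Of all genes, 1.05% and 4.01% were higher with genotype in hippocampus and cortex. With control ASO 6.5% and 0.416% of all genes were higher, and with CD33 ASO 3.62% and 0.822%.

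Of the WAP domain family besides Wfdc17, 5 genes were measured in the hippocampus and 4 in the cortex, and 0 were higher in any comparison with PBS or genotype by limma. Wfdc18 was called lower in the hippocampus with control ASO (limma adjusted p = 0.0269, 0.289 with slide as a block and 0.0661 without the low-Thy1 animals) and with CD33 ASO (limma adjusted p = 0.0258). It was detected on 0 arrays of either ASO group there, so no size is given. Of all genes in the hippocampus, 5.44% were lower with control ASO and 1.98% with CD33 ASO, while 6.5% and 3.62% were higher. In the cortex 0.416% and 0.822% of all genes were higher with control and CD33 ASO. With genotype 1.05% were higher in the hippocampus and 4.01% in the cortex. Of the MiT/TFE factors and their lysosomal targets besides Gpnmb, 14 were measured in the hippocampus and 15 in the cortex. Hexa, a lysosomal hexosaminidase, was higher with genotype in both tissues (0.37 and 0.88) and in the hippocampus with control ASO (0.29) and CD33 ASO (0.51), where the list medians were 0.03 and 0.04. Clcn7, a lysosomal chloride carrier, was higher with control ASO in the hippocampus by 0.14 (limma adjusted p = 0.0439, and 0.37 with slide as a block), and 0 of 15 were higher with either ASO in the cortex, or 1 with each without the low-Thy1 animals.

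Of 21 genes of the response to damaged lysosomes besides the members, 19 were measured, and with either ASO 1 was higher and 1 lower in the hippocampus. The higher one was Lgals8 with control ASO and Lgals9 with CD33 ASO, both also in the galectin list. The lower one was Gabarapl2, an autophagy protein, by -0.58 with control ASO (limma adjusted p = 0.000571, and 0.148 with slide as a block) and -0.37 with CD33 ASO (limma adjusted p = 0.0438, and 0.0769 with slide as a block). With either ASO 0 of 19 were called in the cortex. Of all genes, 6.5% were higher and 5.44% lower in the hippocampus with control ASO, and 3.62% and 1.98% with CD33 ASO. In the cortex 4.01% of all genes were higher with genotype, 0.416% with control ASO and 0.822% with CD33 ASO. Nothing is read from the counts of the damaged-lysosome list. Of genes of lipid-laden macrophages besides the members, 6 of 14 were higher with genotype in the cortex, led by Ch25h, which makes an oxysterol, by 2.06 and Igf1, a growth factor, by 1.15, with a list median of 0.34. With either ASO 0 of 14 were higher in the cortex, with medians of 0.03 and 0.10. Of this list in the hippocampus, 1 of 15 was higher with control ASO, near the share over all genes, and 2 of 15 with CD33 ASO. In the hippocampus Nr1h3, the oxysterol receptor LXR alpha, was higher with control ASO by 0.51 (limma adjusted p = 0.000571, and 0.0656 with slide as a block) and with CD33 ASO by 0.39, and Igf1 with CD33 ASO by 0.76.

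Ms4a7, a marker of border macrophages that activated microglia also express, was higher with both ASOs in both tissues. It was higher with control ASO by 1.03 (SE 0.206, limma adjusted p = 0.00127) in the hippocampus and 1.08 (SE 0.149, limma adjusted p = 1.31e-05) in the cortex, and with CD33 ASO by 1.00 (SE 0.216, limma adjusted p = 0.0024) and 0.93 (SE 0.152, limma adjusted p = 0.00026). With slide as a block the first of these had an adjusted p of 0.0612. Its genotype difference was 0.02 in the hippocampus and 0.21 in the cortex. Of the 7 measured border macrophage markers, 0 were higher with genotype, 2 with control ASO in each tissue (with Stab1 by 0.53 in the hippocampus and Cbr2 by 0.67 in the cortex), and 2 and 1 with CD33 ASO. Stab1 had an adjusted p of 0.302 with control ASO when slide was a block. Over all genes, 6.5% and 0.416% were higher with control ASO in hippocampus and cortex, and 3.62% and 0.822% with CD33 ASO. With genotype the shares were 1.05% and 4.01%. Lower in the hippocampus were 5.44% with control ASO and 1.98% with CD33 ASO. In the hippocampus the transcription factor Maf fell by 0.91 with control ASO (limma adjusted p = 0.000255), and the mannose receptor Mrc1 fell by 0.61 with CD33 ASO (limma adjusted p = 0.0113).

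The summed signal of the 10 border macrophage markers with a probe, of 15 listed, ranged from 408 to 535 in APP/PS1 PBS hippocampi, 415 to 756 with control ASO and 384 to 950 with CD33 ASO. In the cortex it ranged from 431 to 598, 518 to 696 and 492 to 621, and Cd163 was detected on 0 arrays of each of these cortical groups. Of 21 monocyte and neutrophil markers 14 had a probe, with sums of 1397 to 2184 in APP/PS1 PBS hippocampi, 1529 to 3453 with control ASO and 1510 to 4763 with CD33 ASO, and 1448 to 2229, 2004 to 2531 and 1829 to 4547 in the cortex. S100a9, Elane and Chil3 were detected on 0 PBS and control ASO arrays of the APP/PS1 mice in either tissue. Each was detected on 1 or more CD33 ASO arrays of both tissues. Ngp was detected on 0 arrays of any APP/PS1 group. In WT PBS mice, S100a9 was detected on 1 or more cortical arrays and Ngp on 1 or more hippocampal arrays. Single arrays can pass the detection threshold by chance, so nothing is read from these detections. Of the 14 markers, 7 with PBS, 7 with control ASO and 1 with CD33 ASO were detected on no APP/PS1 hippocampal array. In the cortex it was 8, 8 and 4. Lcn2, made by neutrophils and by reactive astrocytes, was higher with CD33 ASO by 2.05 (SE 0.522, limma adjusted p = 0.0122) in the hippocampus and 1.48 (SE 0.384, limma adjusted p = 0.0335) in the cortex, and 1.11 (adjusted p = 0.0829) there without the low-Thy1 animals. Homeostatic microglial markers, 13 of 16 with a probe, summed to 7117 to 8495 in APP/PS1 PBS hippocampi, 7478 to 11935 with control ASO and 7972 to 14303 with CD33 ASO, and to 8701 to 12442, 6221 to 14256 and 5999 to 13736 in the cortex. Higher with genotype were 7 of 13 in the hippocampus and 11 of 13 in the cortex. With control and CD33 ASO 4 and 4 of 13 were higher in the hippocampus (medians 0.28 and 0.30, with 6.5% and 3.62% of all genes higher). In the cortex 0 and 0 were, with 0.416% and 0.822% of all genes higher. Without the low-Thy1 animals these counts were 5 and 8, and 1 and 3. With slide as a block they were 1 and 3, and 0 and 0. The same shares of all genes apply to the astrocyte and macrophage activation lists that follow. The medians over all genes were 0.02 and -0.0026 in the hippocampus and -0.0035 and 0.0029 in the cortex, with control and CD33 ASO. Reactive astrocyte genes were higher in 5 of 14 with control ASO (median 0.37) and 8 of 14 with CD33 ASO (median 0.66) in the hippocampus, and in 0 and 2 of 13 in the cortex (medians 0.09 and 0.24). The 5 became 2 without the low-Thy1 animals and 0 with slide as a block. Among them with CD33 ASO in the hippocampus were complement C4b by 0.85 and the protease inhibitor Serpina3n by 0.74. The sum of the 16 with a probe, of 19, ranged from 4988 to 6361 in APP/PS1 PBS hippocampi, 6067 to 17818 with control ASO and 7026 to 20098 with CD33 ASO, and from 4061 to 5913, 3308 to 6620 and 4265 to 11641 in the cortex. Genes of macrophage activation and tissue injury were higher in 3 and 5 of 15 in the hippocampus (0 and 5 with slide as a block) and in 0 and 3 of 16 in the cortex, with control and CD33 ASO. The Fc receptor Fcgr4 rose by 1.21 and 2.34 in the hippocampus, and by 1.83 with CD33 ASO in the cortex, and its adjusted p with control ASO was 0.1 with slide as a block. The part of these cell types in the levels of the 3 members was not tested.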

How the data were processed

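The authors deposited intensity values, in a table with a signal and a detection p-value for every array, per the file headers. Background had been subtracted from these deposited intensities (21.8% to 26.3% of values per hippocampal array and 23.0% to 25.7% per cortical array were below 0), and arrays were not yet brought to 1 scale. Detection p-values in the deposited table were used as given. A further table deposited by the authors holds normalized log2 values of 18960 probes. BeadStudio, GenomeStudio and Partek are listed in the submitters' processing notes without versions. 0 sample columns were left unused.

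In R 4.3.3 with limma 3.58.1, all 79 arrays went through neqc, which models background with the help of detection p-values, adds a constant (16 here) and applies quantile normalization. Probes detected (p under 0.05) on at least 8 arrays of a tissue were tested, 14923 in the hippocampus and 14581 in the cortex. The fit (lmFit, eBayes with trend) had 4 groups per tissue, with Benjamini-Hochberg adjustment over all probes of the tissue and calls at adjusted p under 0.05. Contrasts between tissues came from a joint fit of 15290 probes with animal as random block (duplicateCorrelation, consensus correlation 0.0801). Permutation tests ran in Python 3.11.15, with scipy 1.17.1 for differences and numpy 2.4.6 for correlations. They were exact where a group had under 10 animals and used 100000 resamples otherwise. Symbols came from the platform annotation, which gave 1 symbol to 17800 probes, and sequences from RefSeq.

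The members and gene lists were chosen with earlier results of these data known. Named genes were the member probes, for each member and tissue the 5 most correlated genes, up to 4 called genes of each list and comparison with the largest change (where none was called, the 2 brightest as values), and Cd33, Thy1, Cst7, Trem2, Tyrobp, Clec7a, Aif1 and Gfap. Lists use the brightest probe of a gene, and not all named genes are printed. Lgals1, Cd163, Elane, Ngp, S100a9 and Chil3 were added after their values were seen. Each Cst7 value of WT was raised to at least the lowest detected signal of its array to give a bound. Summed marker signals are on the linear scale. The fit of each tissue was tested on simulated log2 values with known changes, for control ASO against PBS. The other steps were not tested in this way. The number of arrays limits precision. 0 array pairs held identical values. Same-numbered arrays of different groups deviated together little (median correlation 0.05 in the hippocampus and 0.06 in the cortex), so replicate numbers were not used as pairs. Alternatives covered background, normalization, filter, blocks, array weights, the authors' table and leaving out arrays.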

Additional observations from a re-analysis of the deposited data

Results flagged for a closer look

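In groups of 8 to 10 arrays, a highest or lowest value far from its neighbours was looked for by Dixon's test in 16 groups, of which chance gives about 1 in 20. In the hippocampus the array labelled CD33 ASO replicate 4 was far above the others of its group, with Lgals3 at 11.14, Gpnmb at 12.04 and the dimmer Gpnmb probe at 7.61. The cortex of that animal, CD33 ASO replicate 6, had Lgals3 at 9.71 and Gpnmb at 10.00. Among cortices, the array labelled CD33 ASO replicate 10, a low-Thy1 animal taken after 13 days, had Lgals3 at 11.33, while its Wfdc17 of 5.79 was the lowest of its group. Cortical APP/PS1 PBS replicate 5 stood apart with Lgals3 at 8.46 and the dimmer Gpnmb probe at 5.52.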

How the results depend on the processing

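Across the alternatives other than leaving out single arrays, the ASO differences from PBS kept their direction for the 3 members, from 1.27 to 2.40 for Lgals3, 0.97 to 1.55 for Gpnmb and 0.64 to 2.12 for Wfdc17. With only animals taken after 17 days, the hippocampal CD33 ASO differences were 1.95 for Lgals3, 1.55 for Gpnmb and 1.62 for Wfdc17. The cortical ones were 2.07, 1.06 and 1.41. Wfdc17 moved most, since its PBS level lies near background. With signals floored at 16 its differences were 1.60 and 2.12 in the hippocampus and 1.53 and 1.86 in the cortex (control and CD33 ASO). With an offset of 50 they were 0.64 and 0.94, and 0.65 and 0.84. With the floor its WT tissue difference, of 0.07 between levels at background, turned to -0.031 (adjusted p = 0.91). Leaving out 1 array at a time gave 0.26 to 0.52 for Wfdc17 in the hippocampal comparison of both ASOs, -0.11 (without CD33 ASO replicate 4) to 0.31 for the dimmer Gpnmb probe there, and -0.014 to 0.25 for the tissue difference of Wfdc17, lowest without hippocampal CD33 ASO replicate 4. The adjusted p of the comparison of both ASOs stayed between 0.0627 and 0.96 for the members' brighter probes under the other alternatives. Without the low-Thy1 animals 0 pair correlations passed in place of 2. Correlations that changed sign were those of Lgals3 between tissues in control ASO mice (0.068 with arrays centred on their median, 0.33 without the low-Thy1 animals), of Wfdc17 between tissues in APP/PS1 PBS (0.15 with the floor) and CD33 ASO mice (-0.022, centred), of Gpnmb between tissues in APP/PS1 PBS mice (-0.053, centred), of Gpnmb with Wfdc17 in APP/PS1 PBS hippocampi (-0.25 with the floor) and of Lgals3 with Wfdc17 in CD33 ASO cortices (0.68 without the low-Thy1 animals). The replicate block changed no member's call (Wfdc17 in the hippocampal comparison of both ASOs 0.48, adjusted p = 0.0627), and 22 of 53 same-number pairs in the hippocampus and 22 of 55 in the cortex correlated above 0.1. Probes called in the hippocampus fell from 1698 to 121 for control ASO and from 527 to 113 for CD33 against control ASO with slide as a block. Array weights gave 2600 for control ASO and 216 in place of 142 for genotype. Array medians gave 456 in place of 740 for hippocampal CD33 ASO, 57 in place of 135 for cortical control ASO, 121 in place of 217 for cortical CD33 ASO and 262 for hippocampal CD33 against control ASO. With only the groups compared in the fit these last 3 were 83, 104 and 271. Without the low-Thy1 animals hippocampal CD33 against control ASO gave 221, and cortical CD33 against control ASO 28 in place of 47. The tissue difference of the ASO comparison gave 0 to 3 probes in place of 1. Of the plaque-associated genes in the hippocampus, 0 to 4 were higher with control ASO. Centring on medians also brought the correlation of Lgals3 with Gpnmb in CD33 ASO hippocampi past the threshold (0.95, adjusted p = 0.0492). The cause was not tested. A slide block for the WT tissue contrast was not run, since tissue and slide cannot be told apart.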
